A study of Mus musculus with 47 samples.

Results

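The genes that encode the receptors for GABA, glycine and glutamate were examined in sorted medullary thymic epithelial cells (mTECs) of the mouse. Members were all protein-coding genes whose GRCm38 symbol is that of a GABA-A or GABA-rho subunit (Gabr), a glycine receptor subunit (Glr), an AMPA (Gria), kainate (Grik), delta (Grid) or NMDA (Grin) subunit, or a metabotropic glutamate receptor (Grm). The symbol rule gave 50 genes, all of them listed in both count tables, among 53402 genes in the adult table and 55471 in the neonatal table. The members comprise 19 GABA, 5 glycine, 18 ionotropic glutamate and 8 metabotropic genes. The symbol rule itself uses no measured value, but it was set with earlier results of these data known.

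Receptors for GABA and glycine are pentamers that open a chloride channel and inhibit neurons, whereas AMPA, kainate and NMDA receptors are tetramers that open a cation channel and excite them. Metabotropic receptors signal through G proteins. These genes serve synapses in the brain, spinal cord and retina, and most are not needed by an epithelial cell. mTECs are known to transcribe many genes of peripheral tissues so that developing T cells meet those antigens. Aire is a nuclear protein of mature mTECs that is required for part of this expression, and EED belongs to the Polycomb machinery that marks histones at silent, often CG-rich, promoters.

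The study sorted live EpCAM-positive, CD45-negative and Ly51-negative thymic cells of C57BL/6 mice and split them by MHC class II into a high fraction, mTEChi, and a low fraction, mTEClo, from which full-length cDNA was sequenced. The adult table holds 23 libraries, namely 8 mTEClo WT, 4 mTEClo AireKO, 7 mTEChi WT and 4 mTEChi AireKO, from WT mice of 4 to 5 weeks and AireKO mice of 5 to 6 weeks. The neonatal table holds 24 libraries, namely 3 mTEClo Ctrl (1 to 3 days old), 4 mTEClo EEDcKO (1 to 6 days), 3 mTEClo AireEEDdKO (4 to 6 days), 5 mTEChi Ctrl (1 to 6 days), 3 mTEChi EEDcKO (1 to 6 days), 3 mTEChi AireKO (4 to 6 days) and 3 mTEChi AireEEDdKO (4 to 6 days). AireKO mice are Aire-deficient. EEDcKO mice carry floxed Eed and Foxn1-Cre, so Eed is removed in thymic epithelium, and AireEEDdKO mice combine both. The alleles of the Ctrl mice are not given in the labels. All 8 adult AireKO libraries are from males, whereas both sexes occur in each adult WT group. Some neonatal libraries pool males and females.

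Depth and the targeted genes were checked first. Libraries held 1602125 to 3938588 counts in adults and 1578579 to 4817418 in neonates. A library with 0 counts of a gene may still hold up to 3, which is 0.762 to 1.873 and 0.623 to 1.9 CPM (counts scaled to library size), and this covers counting error alone. Aire averaged 836 CPM in adult mTEChi WT and 26.7 in mTEChi AireKO, and 647 CPM in neonatal mTEChi Ctrl, 837 in EEDcKO, 63.5 in AireKO and 19.7 in AireEEDdKO. Eed averaged 30.4 CPM in neonatal mTEChi Ctrl against 15.1 in EEDcKO and 12.6 in AireEEDdKO, and 24.5 CPM in mTEClo Ctrl against 15.2 and 15.1. Both targeted genes were thus lower in the libraries labelled as lacking them, with Eed transcripts remaining at part of the control level. The epithelial marker Epcam lay between 162 and 349 CPM in every library. In 6 adult AireKO libraries (all 4 of mTEChi and mTEClo replicates 3 and 4) the 37 mitochondrial genes had 0 counts, whereas the other adult libraries had 6178 to 10339. Genotype and this kind of library cannot be told apart in adult mTEChi, and each adult AireKO result carries that limit.

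Promoter sequences are shown for 6 members that the comparisons below describe, chosen after their values were seen, because Polycomb complexes are known to occupy CG-rich promoters and the members differ widely in this feature. Each line gives 300 bases, from 250 before to 50 after a RefSeq start site on GRCm38.p6, in the direction of transcription, with every CG dinucleotide in capitals. Gabra5 (an alpha subunit of extrasynaptic GABA-A receptors) and Gria2 (the AMPA subunit that limits calcium entry) were among the members at 0 in adult mTEChi AireKO, Grin2d (an NMDA subunit) rose there, Grik5 and Grik3 (kainate subunits) rose without EED, and Gabrp (the pi subunit, known from uterus and other epithelia) is a GABA-A gene expressed in both cell types.
Gabra5 (chr7:57510010-57510309, minus strand): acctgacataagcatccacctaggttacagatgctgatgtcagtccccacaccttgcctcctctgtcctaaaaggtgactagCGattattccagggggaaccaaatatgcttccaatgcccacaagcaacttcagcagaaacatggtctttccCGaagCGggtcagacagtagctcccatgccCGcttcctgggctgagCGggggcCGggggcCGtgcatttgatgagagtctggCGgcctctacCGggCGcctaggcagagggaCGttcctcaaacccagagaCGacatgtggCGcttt
Gria2 (chr3:80802786-80803085, minus strand): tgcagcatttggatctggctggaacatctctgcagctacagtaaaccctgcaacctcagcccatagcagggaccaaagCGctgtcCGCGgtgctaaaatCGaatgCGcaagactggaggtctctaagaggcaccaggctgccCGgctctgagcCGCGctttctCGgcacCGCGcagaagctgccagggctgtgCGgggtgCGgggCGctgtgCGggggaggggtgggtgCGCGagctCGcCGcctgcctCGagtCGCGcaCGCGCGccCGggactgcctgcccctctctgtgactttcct
Grin2d (chr7:45866632-45866931, minus strand): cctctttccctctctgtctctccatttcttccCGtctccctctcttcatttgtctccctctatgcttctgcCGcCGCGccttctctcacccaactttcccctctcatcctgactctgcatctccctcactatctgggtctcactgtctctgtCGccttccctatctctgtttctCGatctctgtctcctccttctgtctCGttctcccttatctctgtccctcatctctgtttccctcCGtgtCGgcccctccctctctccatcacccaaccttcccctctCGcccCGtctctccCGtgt
Grik5 (chr7:25072320-25072619, minus strand): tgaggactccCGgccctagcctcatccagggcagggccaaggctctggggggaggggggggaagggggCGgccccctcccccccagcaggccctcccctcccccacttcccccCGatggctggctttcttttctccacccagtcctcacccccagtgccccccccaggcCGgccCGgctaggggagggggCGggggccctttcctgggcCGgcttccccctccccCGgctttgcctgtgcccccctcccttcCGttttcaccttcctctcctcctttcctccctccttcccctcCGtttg
Grik3 (chr4:125490446-125490745, plus strand): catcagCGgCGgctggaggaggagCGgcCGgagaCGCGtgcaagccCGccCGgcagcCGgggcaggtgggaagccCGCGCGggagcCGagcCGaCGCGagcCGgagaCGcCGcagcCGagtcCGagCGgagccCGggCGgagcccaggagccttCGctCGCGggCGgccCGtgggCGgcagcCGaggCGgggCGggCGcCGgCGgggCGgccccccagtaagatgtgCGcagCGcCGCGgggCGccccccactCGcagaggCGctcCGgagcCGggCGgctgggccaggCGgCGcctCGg
Gabrp (chr11:33578908-33579207, minus strand): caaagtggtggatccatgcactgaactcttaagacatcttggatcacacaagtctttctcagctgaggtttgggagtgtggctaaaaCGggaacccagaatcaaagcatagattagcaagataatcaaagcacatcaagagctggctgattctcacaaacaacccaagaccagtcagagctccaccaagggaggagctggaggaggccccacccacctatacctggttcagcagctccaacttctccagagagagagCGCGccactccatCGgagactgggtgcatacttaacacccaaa

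The Grik3 window held 50 CG, Gria2 26, Gabra5 13, Grin2d 12, Grik5 10 and Gabrp 4. The Grin2d window lies inside the annotated gene (chr7:45831883-45878378) and not at its outermost start, so its count describes the listed RefSeq start alone. Over all 32851 promoter windows of the same length the median was 7 CG (range 0 to 67). RefSeq gave a window for 34 of the 50 members, and their first listed starts had a median of 12 CG (range 0 to 50), with 24 over 10 ionotropic glutamate genes, 11 over 15 GABA genes, 8.5 over 4 glycine genes and 11 over 5 metabotropic genes. A TATAAA motif on either strand occurred in 11.8% of these member windows and in 13.6% of all windows; none of the 6 shown held it. Among members with a window, those higher without EED in neonatal mTEChi had a median of 21.5 CG over 4 genes (range 3 to 50). Those higher in neonatal mTEClo had 13 over 5 genes (3 to 42). Those lower without EED in mTEChi had 9.5 over 4 genes (3 to 22), so that the ranges overlapped. The median was 17 over 17 members that fell in adult mTEChi AireKO and 15 over 20 that were higher in adult WT mTEChi than in mTEClo. These counts describe the letters of the window and were not tested.

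Nearly all members were detected in wild-type mTEChi. In adult mTEChi WT, 47 of the 50 genes had a count in every one of the 7 libraries and none was at 0 throughout, while in mTEClo WT 27 genes had a count in all 8 libraries and 5, among them Gabra3, Gabra6, Gabrr3 and Glra2, had none in any. In adult mTEChi AireKO, 32 genes had a count in all 4 libraries and 6, among them Gabra3, Gabra5, Gabra6, Gabrq and Gria2, had none. The neonatal groups showed a like order, with 47 genes in every mTEChi Ctrl library, 42 in EEDcKO, 35 in AireKO and 36 in AireEEDdKO. Over all listed genes, adult mTEChi WT libraries held counts of 28028 to 32252 genes, and mTEChi AireKO libraries of 24991 to 26624. Adult mTEClo WT libraries held counts of 23409 to 26918 genes. Among neonates, mTEChi AireKO libraries had 24490 to 29214 genes with a count, against 29080 to 34241 for controls. Lower detection was thus not a trait of the members alone, and whether members differed more was not tested. The number of libraries differs between these groups, and a gene at the depth floor may be missed. In bulk samples, fewer cells with a transcript and less of it per cell cannot be told apart.

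**Figure D1:**
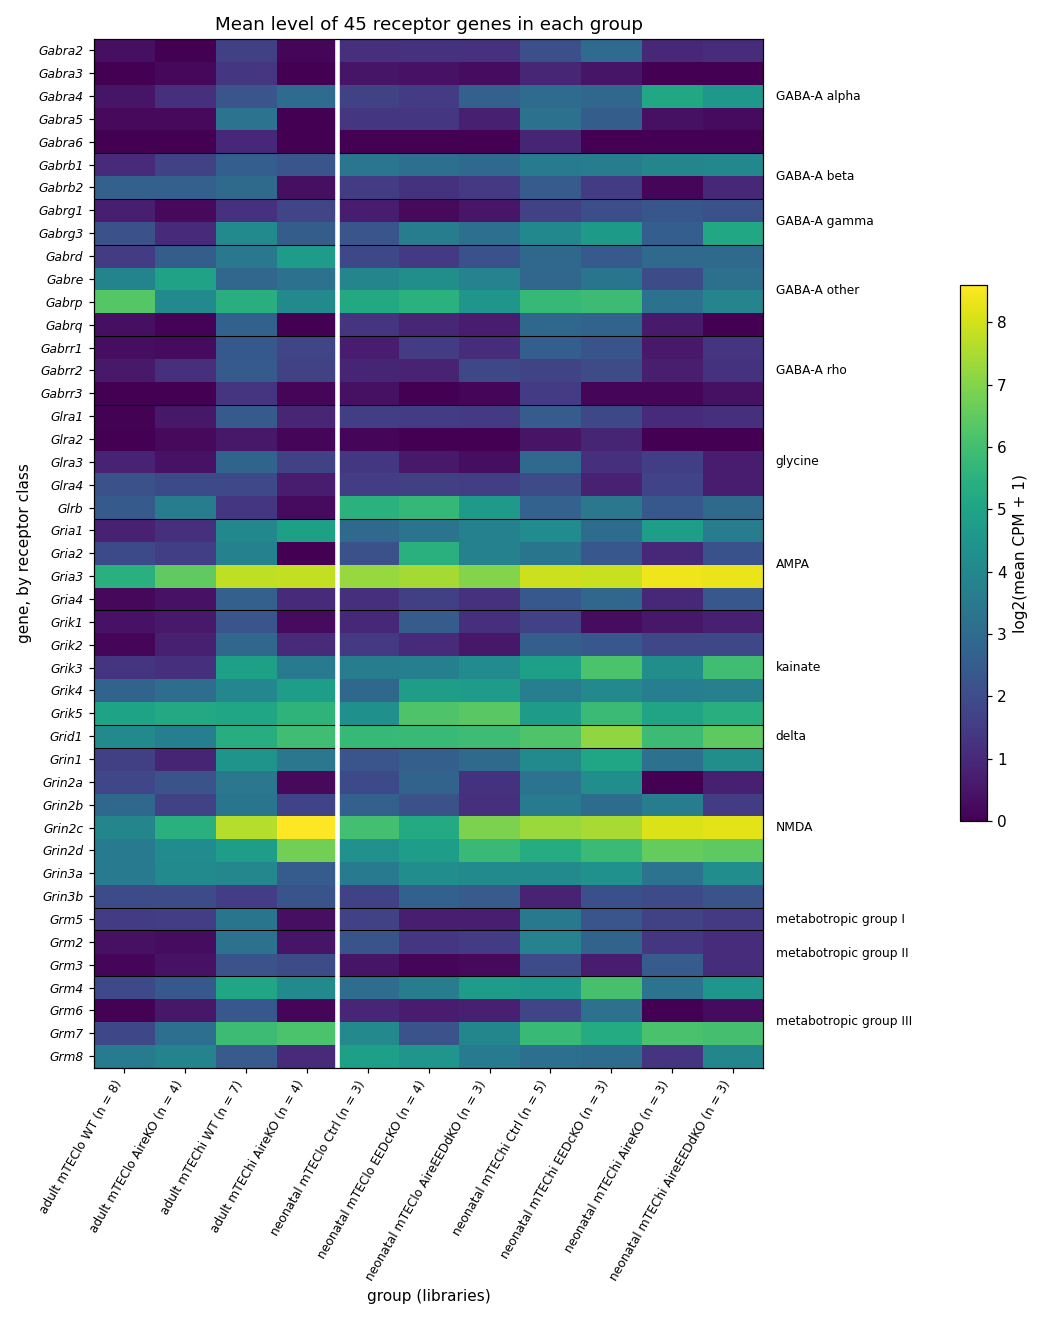
Mean level of 45 receptor genes (rows, by receptor class) in the 11 groups (columns, with the number of libraries), as log2(mean CPM + 1). Gria3 and Grin2c are the brightest rows in mTEChi, and single genes such as Gabra5, Gria2 and Grin2a are dark in mTEChi AireKO; the adult and neonatal tables, parted by the white line, were scaled separately.

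Levels were uneven within each class. Per kilobase of exon, the highest member in adult mTEChi WT was Grin2c, an NMDA subunit known from cerebellar granule cells, at 39.4 ± 3.04 CPM per kb (SD, n = 7). Next were Gria3, an AMPA subunit, at 22.1 ± 1.56, Gabrp at 12.3 ± 2.32 and Grm7, a presynaptic group III metabotropic receptor, at 9.86 ± 0.495. The spreads of Grin2c, Gria3 and Gabrp did not meet, whereas those of Gabrp and Grm7 lay side by side. In adult mTEClo WT, Gabrp led at 23.5 ± 9.48 CPM per kb (n = 8), ahead of Grik5 at 5.92 ± 0.613. Neonatal mTEChi Ctrl had the same leading members, with Grin2c at 31.1 ± 2.23, Gria3 at 25.0 ± 1.82 and Gabrp at 15.8 ± 3.78 CPM per kb (n = 5). Summed over the 18 ionotropic glutamate genes, adult mTEChi WT libraries held 652 to 705 CPM and mTEClo WT libraries 143 to 175. The 19 GABA genes summed to 131 to 179 against 86.6 to 187 CPM, so that this class overlapped between the cell types.

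mTEChi and mTEClo of control mice were compared first. In adult WT, 29 of the 41 tested members were higher in mTEChi and 3 were lower, against 23.8% and 12.3% of all 19310 tested genes in these directions. The median log2 fold change was 2.34 over the members and 0.01 over all tested genes, and in 30 of the 32 called members the libraries of the 2 cell types did not overlap, against 83.3% of all called genes. Grm7, which dampens transmitter release, had 0.666, 2.64 and 4.18 CPM (lowest, median and highest) in mTEClo and 53.9, 58.7 and 61.3 in mTEChi. Gria3 had 35.8, 42.3 and 48.7 CPM in mTEClo and 197, 215 and 245 in mTEChi. Grin2c had 7.76, 12.7 and 19.97 CPM in mTEClo and 171, 200 and 220 in mTEChi. Each of these was higher in all 7 mTEChi libraries than in any of the 8 mTEClo libraries. A gene was called when its adjusted p was under 0.05 and its change at least 2-fold. The p-values weigh the difference against a spread between libraries that was estimated over all groups of the same table. The log2 fold changes were 4.42 ± 0.19 (SE) for Grm7 (adjusted p = 6.47e-18, from edgeR's quasi-likelihood fit with Benjamini-Hochberg correction across the table, as throughout), 2.34 ± 0.11 for Gria3 (9.19e-17) and 3.87 ± 0.22 for Grin2c (3.08e-15).

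Other members were near the floor in mTEClo. Gria1, an AMPA subunit, had 0, 0.732 and 1.30 CPM in mTEClo and 8.50, 14.75 and 20.4 in mTEChi, a log2 fold change of 4.34 ± 0.29. Grik3 had 0.499, 1.37 and 2.84 CPM against 22.5, 28.3 and 36.1, a difference of 4.40 ± 0.33. Both genes again had no overlap between cell types. Other members that were higher are given by class. They included Gabra5 (5.42), Gabrq (4.17), Gabrr1 (3.72), Gabra4 (3.35), Gabrr2 (3.00), Gabrd (2.31), Gabrg3 (2.26) and Gabrb1 (2.08) among the GABA genes, and Glra1 (5.75) and Glra3 (2.84) among the glycine genes, as log2 fold changes. Ionotropic glutamate genes were Grik2 (5.23), Gria4 (4.70), Grin1 (3.32), Gria2 (2.40), Grin2a (1.95), Grin2d (1.39), Grik4 (1.35) and Grid1 (1.31), and metabotropic genes Grm6 (5.60), Grm2 (5.16), Grm3 (4.55), Grm4 (3.70) and Grm5 (2.33). Glra1 and Grm6 each had 1 count in 1 mTEClo WT library and 0 in the others, so the size of their difference is poorly known. Gabra4, Gabra5, Gabrq, Gabrr1, Gria4, Grik2, Grm2 and Grm3 had at most 3 counts in any mTEClo WT library. Their values rest on few counts there too. The genes lower in mTEChi were Glrb (-1.67), the glycine receptor subunit that binds the scaffold gephyrin, Grm8 (-1.18) and Gabre (-1.17), and Gabre lost its call among male libraries (log2 fold change -0.91).

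The 9 members not tested in the adult table were too low in most libraries. Gabra6, a cerebellar alpha subunit, averaged 0.933 CPM in mTEChi WT and was at 0 in all 8 mTEClo WT libraries, which makes it at least 7.71-fold higher in mTEChi. By the same floor of 3 counts per group, Gabra3 was at least 13.2-fold, Gabrr3 at least 12.7-fold and Glra2 at least 3.96-fold higher. Gabra2 had 2.07 ± 1.18 CPM in mTEChi WT (n = 7) and 0.286 ± 0.444 in mTEClo WT (n = 8), Gabrg1 1.31 and 0.66, and Grik1 3.80 and 0.341 CPM. These members excluded by the filter thus also had their higher mean in mTEChi.

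Markers of several other cell types differed as well between adult WT mTEChi and mTEClo. Myeloid markers had 5 of 5 called higher (sums of 240 to 303 against 37.7 to 66.8 CPM), glia markers 5 of 6 (37.6 to 59.6 against 9.1 to 19.9), thymocyte markers 4 of 5 tested (78.5 to 112 against 27.7 to 39.9) and endothelium markers 2 of 3 tested (40.6 to 70 against 30.7 to 57.6). Mesenchyme markers had 3 of 6 higher and 1 lower (192 to 353 against 54.3 to 88), muscle markers 3 of 6 higher and 1 lower (2290 to 3190 against 800 to 1050), neuron markers 4 of 7 tested higher and 3 lower (598 to 727 against 289 to 337), and neuroendocrine markers 1 of 7 higher and 2 lower (213 to 292 against 180 to 314). No marker was at 0 throughout either group. Their part in the receptor values was not tested.

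Neonatal Ctrl libraries gave the same comparison in other mice. Here 20 of 45 tested members were higher in mTEChi and 3 were lower, against 13.8% and 6.92% of all 20196 tested genes, with a median log2 fold change of 1.34 over members and -0.01 over all genes. The higher genes included Gabrr1 (2.83), Gabrq (2.39), Gabra5 (2.19), Gabrg3 (1.93) and Gabra4 (1.55), Glra3 (2.03), Grin1 (2.02), Gria1 (1.33), Grin2c (1.27), Grik3 (1.25) and Grin2d (1.03), and Grm3 (2.71), Grm5 (2.18), Grm7 (1.76), Grm2 (1.74) and Grm4 (1.6). The lower genes were Glrb (-2.82), Grm8 (-1.79) and Gabre (-1.12), the 3 genes that were also lower in adult mTEChi. Of the higher genes, 17 were called at both ages, which is 58.6% of the adult and 85% of the neonatal calls, and none was called in opposite directions. The like shares over all called genes were not counted. The neonatal difference was smaller for Grm7, with 41.8, 52.1, 62.5, 53.9 and 59.9 CPM in mTEChi Ctrl and 22.1, 16.7 and 7.81 in mTEClo Ctrl. The 2 ages were fitted separately and the difference between them was not tested. With 3 mTEClo libraries, leaving out mTEClo Ctrl replicate 1, 2 or 3 ended 10 of the 23 calls, among them Gabrq (2.05), Gabrr1 (2.50) and Glra3 (1.80) without replicate 1, Gabrq (1.9), Glra3 (1.83), Grin2d (0.95) and Grm3 (2.11) without replicate 2, and Gabre (-0.82), Gabrr1 (2.50), Grin2c (1.12) and Grm7 (1.54) without replicate 3. Among mTEChi Ctrl libraries, the call of Glra3 also ended without replicate 2 (1.35) and that of Gabrq without replicate 1, 3, 4 or 5 (2.31 to 2.43, adjusted p 0.051 to 0.061). Among markers, those of cortical epithelium had 3 of 4 lower in neonatal mTEChi Ctrl (sums of 356 to 720 against 1390 to 2200 CPM in mTEClo) and those of mesenchyme 4 of 6 higher (240 to 314 against 120 to 128), while 1 to 3 markers were higher and none lower in the neuron, glia, neuroendocrine, muscle, thymocyte, endothelium and myeloid lists. Their part was not tested.

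**Figure D2:**
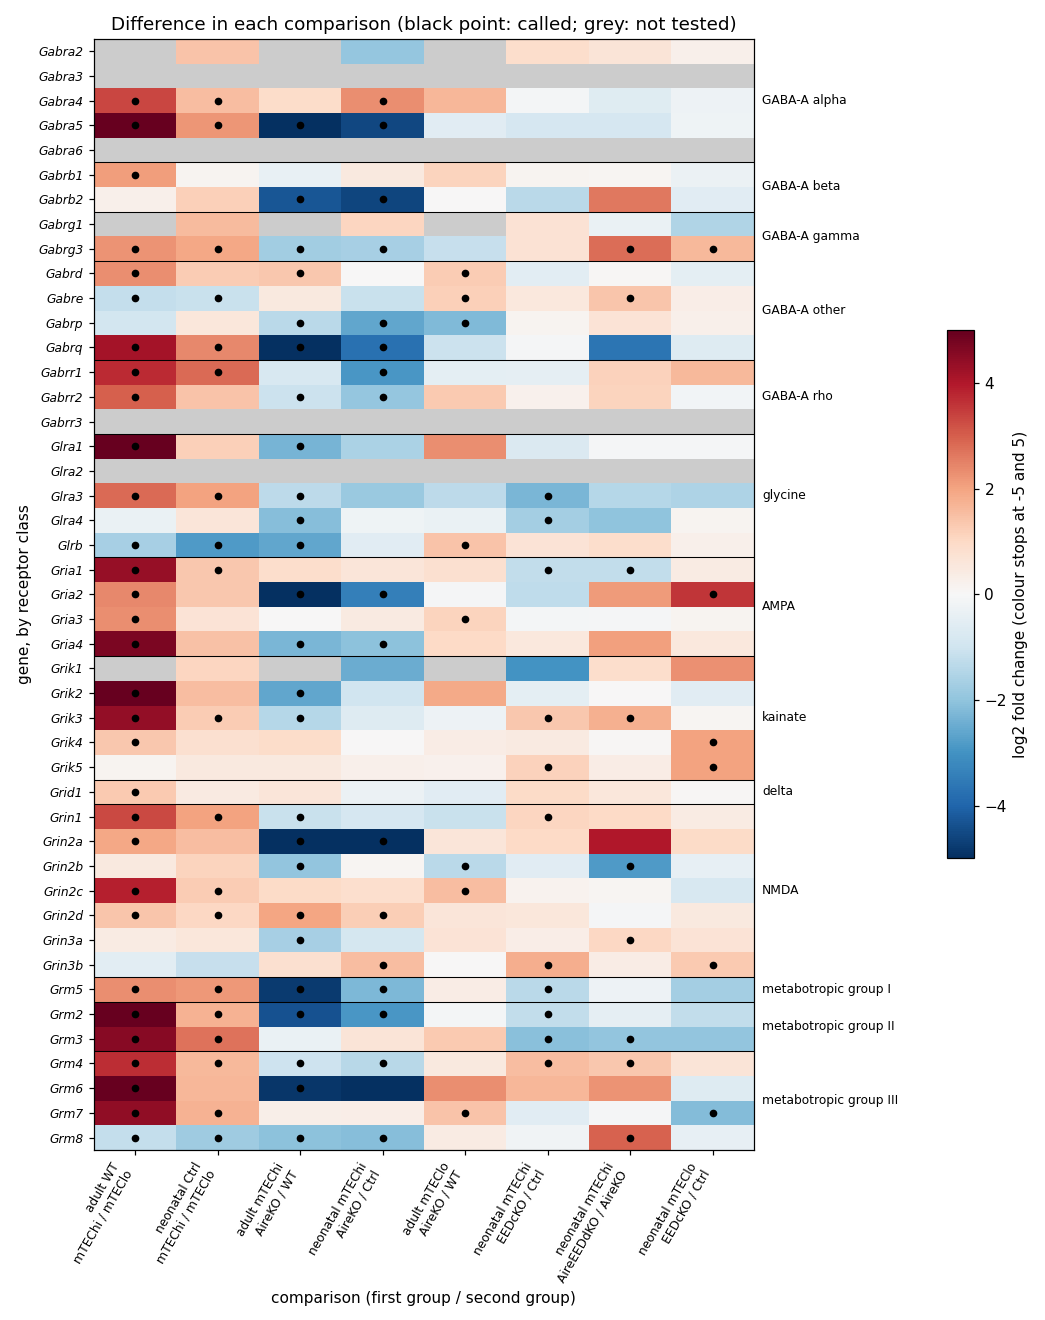
Log2 fold change of 45 receptor genes (rows, by receptor class) in 8 comparisons (columns), with red for higher and blue for lower in the first-named group. Black points mark calls (adjusted p under 0.05 and at least 2-fold), grey cells genes that were not tested; the first 2 columns are mostly red, and the calls of both mTEChi AireKO columns are mostly blue (Gabra5 at -7.63 and -4.55).

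Loss of Aire was then compared within mTEChi. In adult mTEChi AireKO, 26 of the 41 tested members fell and 2 rose, against 18.3% and 5.09% of all tested genes. The median log2 fold change was -1.34 over the members and -0.05 over all genes, and it stayed at -1.34 with the 3 tested members at 0 set to their bounds. In 25 of the 28 called members WT and AireKO libraries did not overlap, against 82.4% of all called genes. Falls occurred in all classes, with 7 of 12 GABA, 4 of 4 glycine, 9 of 17 ionotropic glutamate and 6 of 8 metabotropic genes.

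Markers of other cell types moved beside the receptors in this comparison. Glia markers had 5 of 6 lower and 1 higher (sums of 13 to 24.8 CPM in AireKO against 37.6 to 59.6 in WT), thymocyte markers 4 of 5 tested lower (41.9 to 54.9 against 78.5 to 112) and muscle markers 3 of 6 lower (1280 to 1850 against 2290 to 3190). Neuron and neuroendocrine markers each had 4 of 7 tested lower and none higher, although their sums were 675 to 782 against 598 to 727 and 230 to 295 against 213 to 292 CPM, and Nefl and Scg2 were at 0 in AireKO. Mesenchyme markers had 3 of 6 lower and 1 higher (187 to 206 against 192 to 353) and myeloid markers 2 of 5 lower and 1 higher (344 to 396 against 240 to 303). The part of these markers in the receptor values was not tested.

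Several members fell to 0 or nearly so. Gria2 had 8.60, 12.9 and 16.6 CPM (lowest, median and highest) in the 7 WT libraries and 0 in all 4 AireKO libraries, at least 44.1-fold lower (adjusted p = 4.22e-08). Gabra5 had 6.25, 7.79 and 11.7 CPM in WT and 0 in all 4 AireKO libraries, at least 29.7-fold lower (2.57e-09). Gabrq, the theta subunit, was at least 18.6-fold lower. These bounds divide the WT level by 3 counts over the AireKO group. Grin2a, an NMDA subunit of the mature forebrain, had 5.62, 10.5 and 13.1 CPM in WT and 0, 0, 0.666 and 0 in AireKO. Its ratio was 0.0197 with a counting interval of 0.00236 to 0.072 (adjusted p = 7.06e-09). Grm5, a group I receptor that couples to calcium release, had 5.09, 9.55 and 13.8 CPM in WT and 0.428, 0.395, 0.333 and 0 in AireKO, a ratio of 0.0319 (interval 0.00652 to 0.0949). Gabrb2, a beta subunit found in most brain GABA-A receptors, had 3.89, 5.72 and 11.2 CPM in WT and 0, 0, 0.333 and 0.811 in AireKO, a ratio of 0.0468 (interval 0.00951 to 0.14). In none of these genes did an AireKO library reach a WT library.

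Other members that fell did so by less. Among GABA genes, Gabrg3 changed by -1.72, Gabrp by -1.34 and Gabrr2 by -1.06 on the log2 scale. Glycine receptor genes were Glrb (-2.61, with overlapping libraries), Glra1 (-2.31), Glra4 (-2.15) and Glra3 (-1.32, overlapping). Ionotropic glutamate genes included Grik2 (-2.61), Gria4 (-2.27), Grin2b (-1.99), Grin3a (-1.65), Grik3 (-1.42) and Grin1 (-1.13), and metabotropic genes Grm6 (-4.87), Grm2 (-4.36), Grm8 (-2.07) and Grm4 (-1.04, overlapping). The values of Grm6 and Glrb rest on few AireKO counts. Grm6 had 1 count in AireKO replicate 4 alone and Glrb 2 counts in AireKO replicate 2 alone. Calls that ended without 1 library were those of Gabrr2 (-0.93 without WT replicate 6 and -0.80 without AireKO replicate 4), Glrb (-2.19 to -2.28, adjusted p 0.071 to 0.085 without AireKO replicate 1, 3 or 4), Grin1 (-0.94 without AireKO replicate 2) and Grm4 (-0.82 to -0.99 without WT replicate 3, 6 or 7 or AireKO replicate 3 or 4). The other 24 calls held in each fit that tested the gene. Among untested members at 0 in AireKO, Gabra3 and Gabra6 were at least 5.49-fold and 3.22-fold lower.

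A few members went the other way in AireKO. Grin2d, an NMDA subunit of the brainstem and of interneurons, had 22.5, 27.5 and 31.5 CPM in mTEChi WT and 140, 124, 79.9 and 86.8 in AireKO, so that every AireKO library lay above every WT library (log2 fold change 1.97 ± 0.17, adjusted p = 3.13e-10). Gabrd, the delta subunit of receptors that carry tonic inhibition, had 9.87 ± 2.65 CPM in WT (n = 7) and 25.4 ± 5.27 in AireKO (n = 4), a change of 1.35 ± 0.25. Among the most abundant members, Gria3 had 218 ± 15.4 CPM in WT and 222 ± 8.09 in AireKO, and Grm7 58.0 ± 2.91 and 70.7 ± 6.75, and neither was called. Grin2c had 171, 200 and 220 CPM in WT and 485, 427, 296 and 333 in AireKO, all higher, but its log2 change of 0.95 ± 0.21 stayed under 2-fold. The members together gave 932 to 1050 CPM in WT and 948 to 1280 in AireKO, so that the sums overlapped although 26 members fell. The GABA genes summed to 131 to 179 CPM in WT and 75.4 to 93.4 in AireKO, without overlap.

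**Figure D3:**
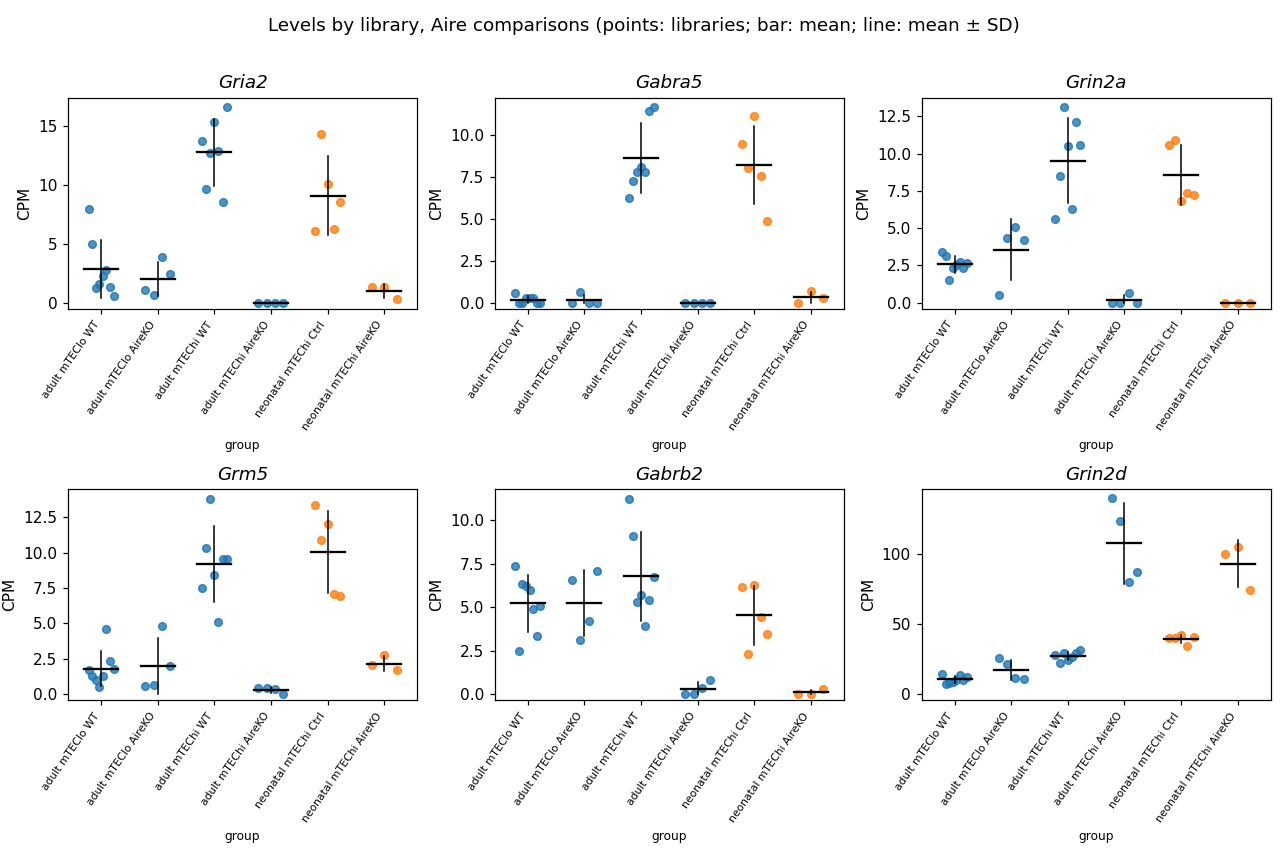
CPM of 6 members in each library (points), with the mean and SD of each group, in adult (blue) and neonatal (orange) libraries with and without Aire. Gria2, Gabra5, Grin2a, Grm5 and Gabrb2 lie below all control libraries in both mTEChi AireKO groups, and Grin2d lies above its control there, at 79.9 to 140 CPM in adults against 22.5 to 31.5 in WT.

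Neonatal mTEChi AireKO, compared with Ctrl, shared no library with the adult comparison, and all its libraries had mitochondrial counts. Of 45 tested members 15 fell and 3 rose, against 12.8% and 3.56% of all tested genes (16.4% in either direction), with a median log2 fold change of -0.99 over members and 0.03 over all genes. Gabra5 had 9.48, 8.02, 11.2, 7.59 and 4.88 CPM in Ctrl and 0, 0.683 and 0.280 in AireKO. Grin2a had 10.6, 10.9, 6.82, 7.33 and 7.20 CPM in Ctrl and 0 in all 3 AireKO libraries, at least 18.6-fold lower. Gria2 had 6.14, 14.3, 10.1, 6.29 and 8.59 CPM in Ctrl and 1.36, 1.37 and 0.280 in AireKO, a change of -3.42 ± 0.89 (adjusted p = 0.00636). The groups did not overlap for any of these. Other falls included Gabrb2 (-4.58), Gabrq (-3.71), Gabrr1 (-2.93), Gabrp (-2.58), Gabrr2 (-1.94), Gabrg3 (-1.66), Gria4 (-2.04), Grm2 (-2.93), Grm5 (-2.25), Grm8 (-2.14) and Grm4 (-1.41). No glycine receptor gene was called. Glia markers had 4 of 6 lower here (sums of 9.56 to 14.9 against 37.4 to 56.7 CPM), neuron markers 3 of 8 lower and 1 higher, mesenchyme markers 3 of 6 lower and 2 higher, and muscle, neuroendocrine and myeloid markers 2 lower each, with 1 neuroendocrine marker higher. The sums were nonetheless higher in AireKO for neuron (728 to 1010 against 506 to 689 CPM) and muscle markers (4910 to 7520 against 2480 to 4840). Neuroendocrine sums were also higher (244 to 316 against 185 to 243). Those of mesenchyme (248 to 347 against 240 to 314) and myeloid markers (250 to 387 against 249 to 268) overlapped. Nefl, Neurod1 and Pdgfra of these lists were at 0 in AireKO. Their part was not tested.

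In all, 13 of the falls were called at both ages. They were Gabra5, Gabrb2, Gabrg3, Gabrp, Gabrq, Gabrr2, Gria2, Gria4, Grin2a, Grm2, Grm4, Grm5 and Grm8, which is 50% of the adult and 86.7% of the neonatal falls, and none was called in opposite directions. How many of all genes fell at both ages was not counted, so these shares have no background beside them. Of the genes that rose, Grin2d was shared, with 39.6, 40.1, 42.0, 34.3 and 40.6 CPM in neonatal Ctrl and 99.9, 105 and 74.0 in AireKO (log2 fold change 1.23 ± 0.23). Gabra4 rose only in the neonatal comparison by this threshold, from 7.02 ± 1.83 CPM (n = 5) to 34.8 ± 1.93 (n = 3), a log2 fold change of 2.33 ± 0.29 (adjusted p = 7.88e-06). In the adult table it had 3.80 ± 2.14 and 7.09 ± 2.43 CPM and was not called. Grin3b, a glycine-binding NMDA subunit, rose by 1.55 ± 0.55, but lost its call without any 1 of Ctrl replicates 1 to 4 or any AireKO replicate (1.21 to 1.62), and 32.1% of its exon bases are shared with Tmem259 on the other strand, which these counts do not separate. The call of Grm8 ended without AireKO replicate 1 (-1.73), and so did those of Gabrr1, Gabrr2 and Gria4 (-2.54, -1.97 and -1.61). Without AireKO replicate 2 those of Gabrg3, Gabrr1 and Gabrr2 ended (-1.80, -3.04 and -2.03), and without Ctrl replicate 1 or 5 that of Gabrr1 (-2.72 and -2.80). Leaving out AireKO replicate 3 alone ended the calls of Gabrg3, Gabrq, Gabrr1, Gabrr2, Gria2 and Gria4 at adjusted p 0.064 to 0.13.

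In adult mTEClo, where Aire averaged 68.6 CPM in WT and 2.68 in AireKO, fewer members differed. Here 6 of 41 rose and 3 fell, against 4.61% and 3.7% of all tested genes (8.31% in either direction). Gria3 had 58.9, 66.0, 106 and 128 CPM in AireKO, all above the 35.8 to 48.7 of WT, a change of 1.10 ± 0.13. Gabrp had 49.3 to 139 CPM in WT and 8.71 to 20.1 in AireKO, a fall of -2.19 ± 0.26 (adjusted p = 4.32e-07). The other 7 calls had overlapping libraries, where 50.9% of all called genes had none, among them Grin2c (1.54), Grm7 (1.44), Glrb (1.42), Gabrd (1.25) and Gabre (1.18) higher and Grin2b (-1.36) lower. With only the 2 AireKO libraries that had mitochondrial counts, Gria3 changed by 0.52, Gabre by 0.37 (adjusted p = 0.34), Glrb by 0.10 and Gabrd by 1.44 (adjusted p = 0.058), none of them called, while Gria3 also fell under 2-fold without AireKO replicate 3 (1.00) or 4 (0.85). The 2 libraries with mitochondrial counts were from mice of 5 weeks and the other 2 from mice of 6 weeks. Kind of library and age cannot be told apart among them. Without AireKO replicate 4, Gabre (0.90), Glrb (0.80) and Gabrd (1.19, adjusted p = 0.05) were not called either. The calls of Gabrd and Grin2b ended without AireKO replicates 1 (0.93) and 3 (-1.17), respectively. Gabrp, Grin2c and Grm7 held in every alternative that tested them. Cortical epithelium markers had 2 of 4 higher and muscle markers 2 of 6 higher in mTEClo AireKO, and myeloid markers 2 of 5 higher and 1 lower, and their part was not tested.

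Whether the Aire effect differed between the cell types was tested as an interaction in the adult table. It was called for 19 of 41 members, 17 with a lower and 2 with a higher effect in mTEChi than in mTEClo, against 11.6% and 2.23% of all tested genes. The negative values included Grm6 (-7.18), Grin2a (-5.96), Grm5 (-5.15), Glra1 (-4.62), Grik2 (-4.49), Gabrb2 (-4.30), Glrb (-4.03), Gria4 (-3.27), Grm8 (-2.48), Gabrr2 (-2.37), Grin3a (-2.32), Glra4 (-1.81), Grm7 (-1.15) and Gria3 (-1.07), and for Gria2 (-8.14) and Gabra5 (-7.05) the fitted value depends on the prior count, since both were at 0 in mTEChi AireKO. Grm6, Glra1, Grik2 and Gria4 had at most 3 counts in any mTEClo library, so their values rest on few counts there. Grm6 also had a count in only 1 mTEChi AireKO library. Gabrb2 shows the pattern plainly, with 2.50, 5.53 and 7.39 CPM in mTEClo WT and 6.54, 3.11, 4.20 and 7.12 in mTEClo AireKO. Its libraries overlapped in mTEClo and were apart in mTEChi. The positive values were Grin2d (1.35) and Grid1 (1.17). Without mTEClo AireKO replicate 1 the calls of Glra1 (-3.19), Gria4 (-3.14), Grm6 (-5.75) and Grm7 (-0.90) ended, without replicate 2 that of Gabra5 (-5.42, adjusted p = 1), without replicate 3 those of Glra4 (-1.55), Gria3 (-0.94) and Gria4 (-3.33), and without replicate 4 those of Gria3 (-0.79), Gria4 (-2.94) and Grid1 (0.91). Leaving out mTEChi AireKO replicate 1 ended those of Glra4 (-1.65) and Gria4 (-2.99), replicate 3 that of Glra4 (-1.59), and mTEChi WT replicate 2 or mTEClo WT replicate 8 that of Gria3 (-0.99 and -0.98).

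AireKO mTEChi against AireKO mTEClo gave 17 members higher and 9 lower, against 17.8% and 17.5% of all tested genes. The same replicate numbers deviated together in these groups, and with the replicate block the count was 26 as without it. Higher in mTEChi were, among others, Gria1 (4.42), Gabrr1 (3.43), Grin1 (3.32), Grin2c (3.28), Grm7 (3.27), Grik3 (3.22), Grm3 (2.89), Glra3 (2.84), Grin2d (2.74), Gabra4 (2.62), Grid1 (2.49), Gabrd (2.41), Grm4 (2.17), Grik4 (1.87), Gabrg3 (1.71) and Gria3 (1.27). Lower were Glrb (-5.70), Gabrb2 (-4.03), Grin2a (-4.01), Grm8 (-3.66), Grm5 (-2.82), Glra4 (-2.14), Grin3a (-1.91), Gabre (-1.88) and Gria2, which was at least 6.95-fold lower. Several genes that were higher in WT mTEChi than in WT mTEClo, among them Gria2, Grin2a and Grm5, were thus lower in mTEChi when Aire was absent. Without mTEClo AireKO replicate 3 the call of Grm5 ended (-1.96, adjusted p = 0.07). Among libraries without mitochondrial counts alone there were 17 calls, 11 higher and 6 lower.

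Members that lie close together in the genome were described as 7 clusters holding 20 genes, by a distance under 2 Mb on GRCm38. At chr3:80681450-80913660, Gria2 and Glrb both fell in adult mTEChi AireKO, although Gria2 was higher and Glrb lower in WT mTEChi than in mTEClo. At chr5:70751047-72149037 (Gabrg1, Gabra2, Gabra4 and Gabrb1) the 2 genes tested in adults, Gabra4 and Gabrb1, were not called in AireKO, and in neonates Gabra4 alone was, as higher. At chrX:72255999-72842602, Gabrq fell at both ages, while Gabre did not pass the test in AireKO mTEChi. Gabra3, which lies between them and was not tested in adults, had no counts in mTEChi AireKO at either age. At chr4:33062999-33163588, Gabrr1 and Gabrr2 both fell in neonatal mTEChi AireKO (-2.93 and -1.94), and in adults Gabrr2 fell while Gabrr1 (-0.80, adjusted p = 0.0628) was not called. At chr11:55514238-57330244, Glra1 fell in adult mTEChi AireKO and Gria1 (0.87) was not called, and neither was called in neonates. Gabra5 and Gabrg3, which also lie near each other, both fell at both ages. Neighbouring genes were thus called together in some clusters and singly in others.

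Loss of EED was examined in neonatal mTEChi. Against Ctrl, 5 of 45 tested members rose in EEDcKO and 7 fell, against 8.48% and 5.4% of all tested genes, and the median was -0.07 over members and 0 over all genes. None of the 15 tested GABA genes was called. Grik5, a high-affinity kainate subunit that works with other kainate subunits, had 30.7, 19.5, 28.9, 21.2 and 28.1 CPM in Ctrl and 49.1, 69.0 and 53.6 in EEDcKO. Grm4, a presynaptic group III receptor, had 31.2, 22.3, 16.9, 17.3 and 27.6 CPM in Ctrl and 66.3, 68.5 and 66.4 in EEDcKO. Grik3 had 29.6, 28.1, 28.9, 26.2 and 26.5 CPM in Ctrl and 67.0, 83.5 and 61.4 in EEDcKO. All 3 EEDcKO libraries lay above all 5 Ctrl libraries for these genes, with log2 fold changes of 1.17 ± 0.17 (adjusted p = 3.37e-05), 1.56 ± 0.25 (8.07e-05) and 1.35 ± 0.29 (0.00126). Grin3b had 0.558, 0, 0.818, 0.262 and 2.32 CPM in Ctrl and 2.46, 4.77 and 2.50 in EEDcKO (1.82 ± 0.49), with the overlap with Tmem259 named above. Grin1, the subunit that all NMDA receptors need, rose by 1.07 with overlapping libraries and by 0.29 without EEDcKO replicate 3.

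Falls in EEDcKO included AMPA, glycine and metabotropic genes. Gria1 had 12.3, 17.8, 18.3, 21.7 and 15.1 CPM in Ctrl and 9.21, 9.54 and 3.12 in EEDcKO (log2 fold change -1.25 ± 0.35, adjusted p = 0.00939), and the 2 groups did not overlap. Glra3 (-2.28), Grm3 (-2.09), Glra4 (-1.68), Grm5 (-1.35) and Grm2 (-1.24) also fell. Of the 12 calls 3 held in every fit, among them those of Grm4 and Grik3. Without EEDcKO replicate 3, Gria1 changed by -0.86, Glra3 by -1.66, Glra4 by -1.69, Grm2 by -0.93, Grm3 by -1.76 and Grm5 by -0.86, none of them called, and without EEDcKO replicate 2 Grik5 changed by 0.99, Grin3b by 1.35 and Grm2 by -1.25. Further calls that 1 library ended were those of Grin1 (0.90 without Ctrl replicate 4), Glra3 (-1.6 without Ctrl replicate 2), Glra4 and Grm5 (-1.36 and -1.39 without EEDcKO replicate 1), Grm2 (-1.16 to -1.26 without Ctrl replicate 1, 2, 3 or 5) and Grm5 (-1.23 to -1.33 without Ctrl replicate 1, 2 or 3). Mesenchyme markers were higher in EEDcKO, with 3 of 6 called and summed levels of 488 to 772 CPM against 240 to 314 in Ctrl, neuron markers had 3 of 8 higher and none lower, and myeloid markers 2 of 5 lower. Their part in these values was not tested.

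On an Aire-deficient background, AireEEDdKO was compared with AireKO. Here 6 of 45 members rose and 3 fell, against 6.69% and 2.78% of all tested genes. Gabrg3, a gamma subunit, had 6.12, 5.46 and 3.36 CPM in AireKO and 39.7, 39.5 and 21 in AireEEDdKO (log2 fold change 2.81 ± 0.56, adjusted p = 0.00113). Grik3 had 11.6, 26.6 and 15.7 CPM against 50.2, 88.8 and 44.9 (1.78 ± 0.37). Grm8, a group III receptor, had 0, 2.05 and 2.52 CPM against 22.2, 13.2 and 8.27 (2.96 ± 0.68). All 9 called members had libraries that did not overlap, as did 97.2% of all called genes. Grm4 had 9.51, 7.51 and 8.69 CPM in AireKO and 23.4, 23.5 and 19.4 in AireEEDdKO (1.35 ± 0.36). Grin3a, a glycine-binding NMDA subunit, had 10.2, 6.83 and 8.69 CPM against 17.5, 22.3 and 13.4 (1.02 ± 0.32), and Gabre rose by 1.40. Grik3 and Grm4 had also risen in EEDcKO against Ctrl, a comparison of other libraries, which is 40% of the 5 genes there and 33.3% of the 6 here.

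Gria1 had 25.8, 26.6 and 26.9 CPM in AireKO and 12.8, 12 and 9.54 in AireEEDdKO (-1.22 ± 0.38). It fell in both comparisons, as did Grm3 (-1.98 here), which is 28.6% of the 7 falls there and 66.7% of the 3 here, while Grin2b, an NMDA subunit of the developing brain, fell by 2.84 on the log2 scale in AireEEDdKO alone by this threshold. With 3 libraries a group, these calls were fragile. Those of Gabrg3, Grik3 and Grm8 held throughout. The call of Gria1 ended without any 1 of the 6 libraries (-1.09 to -1.32, adjusted p 0.054 to 0.11), and those of Gabre, Grin2b, Grin3a, Grm3 and Grm4 ended without AireKO replicate 3 (1.33, -2.44, 1.02, -2.09 and 1.35). That left 3 of 9 calls, and the counts were 4, 5, 4 and 5 without AireKO replicate 2 or AireEEDdKO replicate 1, 2 or 3. The same replicate numbers deviated together in these groups, but the labels name no pairs, and libraries of the same number were also of the same age. With the replicate block Grin2b was not called (-2.73, adjusted p = 0.06) and 8 calls were made. Mesenchyme markers again moved, with 2 of 6 called higher and sums of 400 to 721 CPM against 248 to 347, neuron markers had 3 of 8 called higher and 1 lower, and muscle markers 5 of 6 higher (3920 to 7340 against 4910 to 7520 CPM summed), and their part was not tested.

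**Figure D4:**
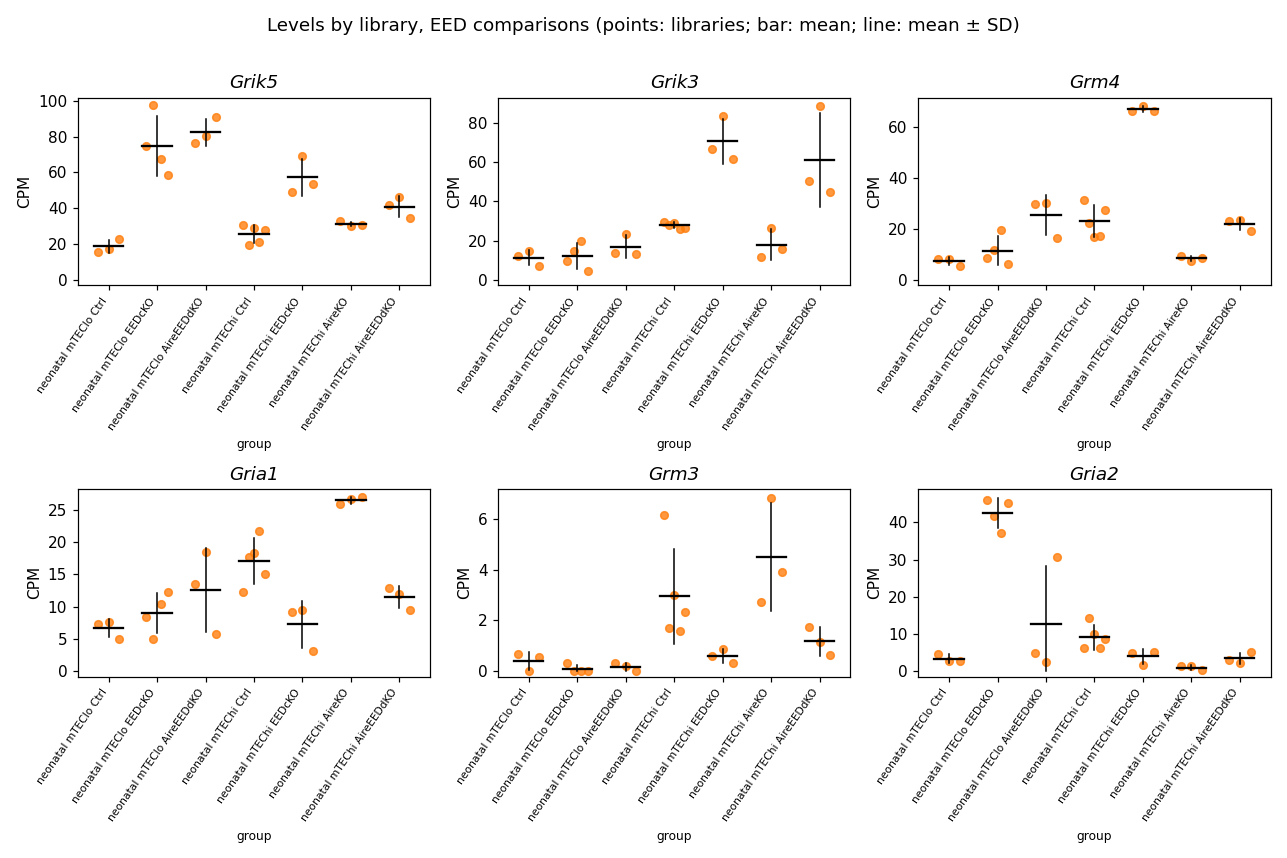
CPM of 6 members in each neonatal library (points), with the mean and SD of each of the 7 groups. Grik3 and Grm4 are higher without EED in mTEChi, at 61.4 to 83.5 and 66.3 to 68.5 CPM in EEDcKO, Gria1 and Grm3 are lower there, and Gria2 and Grik5 are higher in mTEClo EEDcKO than in mTEClo Ctrl.

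The Aire effect without EED was read from AireEEDdKO against EEDcKO in mTEChi. Of 45 members 1 was higher and 8 were lower, against 4.99% and 8.36% of all tested genes. Gabra4 was higher (1.83 ± 0.34), with 22.8 ± 4.12 CPM against 6.30 ± 0.691 (n = 3 each). Gabrq had 1, 71 and 3 counts in EEDcKO replicates 1, 2 and 3 and was at 0 in all 3 AireEEDdKO libraries. By the group mean it was at least 12.4-fold lower, and that mean rests mostly on EEDcKO replicate 2. Grin2a had 29.5, 1.74 and 21.2 CPM in EEDcKO and 1.17, 0.573 and 0.318 in AireEEDdKO (-4.66). Gabra5 had 6.76, 3.04 and 4.68 CPM against 0, 0.573 and 0, a ratio of 0.0358 (interval 0.000884 to 0.211). Other calls were Grm6 (-5.42), Grm2 (-2.15), Gabrp (-2.01) and Grm4 (-1.61). Of the 8 genes that were lower, 7 were also lower in AireKO against Ctrl, which is 87.5% of the 8 and 46.7% of the 15 in that comparison. The like shares over all called genes were not counted. Without AireEEDdKO replicate 1 the calls of Gabrp (-1.72), Grm2 (-2.14) and Grm6 (-5.06) ended, and 5 calls were made. Without AireEEDdKO replicate 2 that of Grm2 (-1.9) ended, and without replicate 3 that of Grm6 (-4.66). Without EEDcKO replicate 1 that of Grm2 (-1.84) ended, without replicate 2 those of Gabrq (-4.39) and Grm2 (-2.20), and without replicate 3 those of Gabrp (-1.31) and Grm6 (-3.50).

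The difference of the Aire effect with and without EED was itself tested as an interaction. No member was called by edgeR's quasi-likelihood test, against 0.807% of all tested genes higher and 0.446% lower. At an unadjusted p under 0.05 there were 6 members, and DESeq2 called 1. The count was 1 without EEDcKO replicate 1 or AireEEDdKO replicate 3. For single genes such as Gria2, which had 9.09 ± 3.36 CPM in Ctrl, 1.00 ± 0.625 in AireKO, 3.98 ± 1.96 in EEDcKO and 3.43 ± 1.47 in AireEEDdKO, the interaction was therefore not detected at this depth and number of libraries.

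In neonatal mTEClo, 7 of 45 members were higher in EEDcKO than in Ctrl and 1 was lower, against 9.51% and 6.22% of all tested genes. Gria2 had 4.69, 2.78 and 2.79 CPM in Ctrl and 46.1, 41.7, 37.2 and 45.3 in EEDcKO (log2 fold change 3.59 ± 0.61, adjusted p = 0.000134). Grik5 had 15.7, 17.4 and 22.9 CPM against 74.8, 97.6, 67.5 and 58.8 (2.02 ± 0.20, 1.86e-07). Grik4, the other high-affinity kainate subunit, had 8.04, 6.61 and 5.02 CPM against 30.4, 32.1, 21.1 and 25.3 (2.01 ± 0.33). Every EEDcKO library was above every Ctrl library for these genes.

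Grm7 went down, with 22.1, 16.7 and 7.81 CPM in mTEClo Ctrl and 1.34, 6.06, 4.86 and 2.00 in EEDcKO (-2.16 ± 0.61, adjusted p = 0.01). Gabrg3 (1.6) and Grin3b (1.32) also rose. Without Ctrl replicate 1, Grm7 (-1.89, adjusted p = 0.065), Gabrg3 (1.65, 0.081) and Grin3b (1.09, 0.17) were not called, and 5 calls were made. The calls of Gabrg3 and Grin3b also ended without Ctrl replicate 2 or 3 or EEDcKO replicate 3 (1.17 to 1.6 and 1.24 to 1.42), that of Gabrg3 without EEDcKO replicate 4 (1.46) and that of Grin3b without EEDcKO replicate 2 (1.29). Grik5 and Grin3b rose in both mTEChi and mTEClo without EED, which is 40% of the 5 genes that rose in mTEChi and 28.6% of the 7 in mTEClo. Cortical epithelium markers fell in these libraries, with 4 of 4 called lower and sums of 182 to 626 CPM against 1390 to 2200 in Ctrl, and mesenchyme markers rose, with 5 of 6 called and sums of 492 to 677 against 120 to 128. Their part in the receptor values was not tested, and no marker of these lists was at 0 in either group.

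The EED effect differed between the cell types for 3 members, all with a lower effect in mTEChi, against 0.97% of all tested genes lower and 0.614% higher (1.58% in either direction). Gria2 had an interaction of -4.85 ± 0.86 (adjusted p = 0.00366), with 3.98 CPM in mTEChi EEDcKO against 9.09 in Ctrl, where the change of -1.26 ± 0.61 did not pass the test, and 42.6 against 3.42 CPM in mTEClo. The call of Gria2 held in every alternative, and those of the other members did not.

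mTEClo AireEEDdKO against mTEClo EEDcKO gave 6 members higher and 1 lower, against 3.45% and 1.85% of all tested genes (5.3% in either direction). They were Grm7 (1.99), Grin2c (1.68), Gabrr2 (1.64), Gabra4 (1.37), Grm4 (1.12) and Grin2d (1.03) higher and Gria2 (-1.72) lower, the last with 5.01, 2.44 and 30.8 CPM against 37.2 to 46.1. Among markers, those of neurons had 4 of 8 called higher and those of muscle 4 of 6, with none lower in either list. The summed muscle markers did not overlap between the groups, whereas the summed neuron markers did. Their part in the receptor values was not tested. None of the 7 receptor calls held in all alternatives. No member was called without AireEEDdKO replicate 1, where Grm7 changed by 1.65 (adjusted p = 0.21) and Gria2 by -1.37 (0.2), and there was 1 call without AireEEDdKO replicate 2 or EEDcKO replicate 1 and there were 4 without EEDcKO replicate 2.

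Genes that make, move or anchor these transmitters and receptors were taken from 6 lists of 62 genes, of which 52 could be tested in adults and 55 in neonates. The genes named from them were chosen after their values were seen. In adult mTEChi AireKO, 21 of 52 fell and 5 rose, against 18.3% and 5.09% of all tested genes. Of the 7 tested genes for GABA synthesis, transport and breakdown 4 fell, among them the GABA transporter genes Slc6a11, Slc6a12 and Slc6a13. Slc6a12 had 9.45 ± 1.64 CPM in WT (n = 7) and was at 0 in all 4 AireKO libraries, as was Slc6a11 (18.2 ± 7.62 in WT). In neonatal AireKO mTEChi 24 fell and 1 rose, against 12.8% and 3.56% of all tested genes. The falls included 8 of the 9 genes of the GABA list, and Slc6a11 and Slc6a12 were at 0 in all 3 libraries. Gabbr2, a subunit of the metabotropic GABA-B receptor, fell by 1.87 in adults and by 1.97 in neonates on the log2 scale. These GABA transporter genes were thus lower in AireKO mTEChi at both ages. Among GABA receptor genes, 7 fell and 1 (Gabrd) rose in adults, and 8 fell and 1 (Gabra4) rose in neonates.

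In EEDcKO mTEChi the same lists had 10 of 55 genes higher and 2 lower, against 8.48% and 5.4% of all tested genes. In AireEEDdKO against AireKO 14 were higher and 2 lower, against 6.69% and 2.78%. Nlgn2, an adhesion protein of inhibitory synapses, had 6.69 to 17.0 CPM in Ctrl and 32.6 to 58.6 in EEDcKO, and 3.40 to 5.88 in AireKO and 21.8 to 28.6 in AireEEDdKO. Cacng7, an auxiliary subunit of AMPA receptors, had 3.35 to 6.55 CPM in Ctrl and 17.5 to 37.5 in EEDcKO. Neither overlapped between groups. In neonatal mTEClo EEDcKO 7 of the 55 rose and 8 fell, against 9.51% and 6.22% of all tested genes. Between WT mTEChi and mTEClo of adults 26 of 52 were higher and 6 lower, against 23.8% and 12.3%.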

How the data were processed

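RNA of sorted mTEChi and mTEClo pools was read by RamDA-seq, a full-length random-primed method. Per the paper's methods and the submitters' processing notes, the authors trimmed reads with fastp 0.20.0, aligned them to mm10 with STAR 2.7.3a, used SAMtools 1.9 and Picard 2.21.1, and deposited raw counts per gene from HTSeq 0.11.2, not separated by strand. The annotation release is not given in the sources used here. The deposited tables of normalised values were not used. Symbols and exon lengths came from the GRCm38 annotation.

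Groups were taken from the labels. edgeR 4.0.16 (R 4.3.3; limma 3.58.1) was run on the counts of each table with TMM scaling, filterByExpr by group, all groups in the fit and no further covariate, as a quasi-likelihood test with a prior count of 0.125 and Benjamini-Hochberg adjustment over all tested genes. Calls required both 2-fold difference and adjusted p below 0.05. CPM of members used TMM-scaled library sizes, those of Aire and Eed plain totals. The biological coefficient of variation was 14.5% in adults and 19.8% in neonates. A group at 0 was given a bound from 3 counts over the group, and 1 to 3 counts an exact 95% interval of the ratio, which is printed for some genes only. Both cover counting error only. The fit was tested on simulated counts. Classes, pathway lists and marker lists are described by counts, sums and medians alone. Calls shared between comparisons were counted over the members only, so no share over all genes stands beside them. Some genes are not reported here by name, although counts of calls, sums and medians include them. The other called members are named, with values by library for up to 6 per main comparison, taken by smallest adjusted p where either group averaged 1 CPM or more, and elsewhere mostly for the same genes. The members and lists were chosen with earlier results of these data known.

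Alternatives were DESeq2 1.42.0, library size without TMM, other filters, only the groups compared, age as a term, males only, libraries of 1 kind, a replicate block and leaving out each library. Replicate numbers deviated together in AireKO mTEChi against mTEClo (correlations 0.139 to 0.222 over 4 pairs) and in mTEChi AireEEDdKO against AireKO (0.108 to 0.213 over 3 pairs), and in no other comparison. No 2 libraries of a group agreed within sampling noise (lowest chi-square per degree of freedom 1.23).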

Additional observations from a re-analysis of the deposited data

Results flagged for a closer look

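In 6 of the 106 sets of libraries tested for a library far from the rest of its group, 1 library stood apart. Chance alone gives about 1 in 20 such sets. Gabra5 had 0.622 CPM in adult mTEClo AireKO replicate 2 against 0, and 4.01 CPM in neonatal mTEClo EEDcKO replicate 1 against 0.634 to 1 in the others. Grin2a had 0.666 CPM in adult mTEChi AireKO replicate 3 against 0. Grm5 had 4.58 CPM in adult mTEClo WT replicate 6 against 0.521 to 2.33. Grm8 had 15.7 CPM in adult mTEClo WT replicate 7 against 8.11 to 11.4, and 7.53 CPM in adult mTEChi WT replicate 4 against 2.99 to 4.86. The sets that stand at 0 apart from 1 library rest on 1 or 2 counts each.

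The effect of Aire differed between adult mTEChi and mTEClo, by the interaction term, for 19 members. The log2 differences included -7.05 for Gabra5, -4.3 for Gabrb2, -2.37 for Gabrr2, -4.62 for Glra1, -1.81 for Glra4, -4.03 for Glrb, -8.14 for Gria2, -1.07 for Gria3, -3.27 for Gria4, -4.49 for Grik2, -5.96 for Grin2a, -2.32 for Grin3a, -5.15 for Grm5, -7.18 for Grm6, -1.15 for Grm7 and -2.48 for Grm8, and 1.17 for Grid1 and 1.35 for Grin2d. The values of Gabra5 and Gria2 depend on the prior count, and those of Grm6, Glra1, Grik2 and Gria4 rest on at most 3 counts in any mTEClo library. Of the 19, 9 kept their call in every alternative that tested them.

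The effect of EED differed between neonatal mTEChi and mTEClo for 3 members. Of these Gria2 (-4.85) kept its call in every alternative.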

How the results depend on the processing

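No result reversed under any alternative. Of 4090 values of called members, 3817 stayed on the same side of the threshold and 273 did not; of 133 counts of called members, 117 stayed within 1.5 times and 16 moved. With at least 10 counts required in every library of a group, adult mTEChi AireKO against WT gave 17 calls and WT mTEChi against mTEClo 20, since fewer genes were tested and a gene left untested has no value there. With only the groups compared in the fit, adult WT mTEChi against mTEClo gave 21, AireKO mTEChi against mTEClo 15, mTEChi AireEEDdKO against EEDcKO 4, the Aire by EED interaction 4 and mTEClo AireEEDdKO against EEDcKO 0. In adult mTEClo AireKO against WT, age as a term gave 4 and males only 5, and males only gave 12 for the adult interaction. AireKO mTEChi against mTEClo gave 17 with libraries of 1 kind. Without a filter on low counts, the Aire by EED interaction gave 3 and the interaction of EED with cell type 5; DESeq2 gave 1 for the former. The cause was not tested where none is named. With a replicate block the counts in adults were 28 (mTEChi AireKO), 8 (mTEClo AireKO), 32 (WT mTEChi against mTEClo), 26 (AireKO mTEChi against mTEClo) and 17 (interaction). In neonates the block gave 11 (mTEChi EEDcKO), 18 (mTEChi AireKO), 8 (AireEEDdKO against AireKO), 9 (AireEEDdKO against EEDcKO), 1 (Aire by EED), 8 (mTEClo EEDcKO), 3 (mTEClo AireEEDdKO), 24 (mTEChi against mTEClo) and 3 (EED by cell type). Leaving out 1 library, in the same order, gave 27 to 29, 7 to 11, 32 to 33, 25 to 27 and 16 to 21 in adults, and 8 to 12, 12 to 18, 3 to 8, 5 to 9, 0 to 1, 5 to 10, 0 to 9, 18 to 24 and 1 to 4 in neonates. For EED by cell type, 1 call was made without mTEClo Ctrl replicate 2 or 3, mTEClo EEDcKO replicate 1, mTEChi Ctrl replicate 3 or mTEChi EEDcKO replicate 3. Members near the floor of 3 counts, and groups of 3 libraries, limit what these data can resolve.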
